A study of Homo sapiens with 4 samples.

Results

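The collagen gene family was followed through spheroids of 4 established human colon cell lines. Its members were the rows of the gene table whose symbol reads COL, a number, the letter A and a number with nothing after it. That gave 44 genes of the 58740 in the table, and each was placed in a structural class from textbook knowledge. The lines were HCEC-1CT, a non-cancerous colon line immortalised with CDK4 and TERT, and the colon cancer lines HCT116, DLD-1 and SW620, the last taken from a lymph node metastasis. The labels give WT as the genotype and epithelial as the cell type of all 4, with no drug or other treatment. All 4 were kept for 7 days as spheroids in plates of 24 wells with a low-attachment surface, fed with medium holding 10% serum. RNA of each line came from 2 plates and made 1 library, so no value below has a replicate, no test was possible, and lines are described side by side.

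Collagens are proteins of 3 chains wound into a triple helix, and each gene encodes 1 kind of chain. Fibrillar collagens form the cable-like fibrils of connective tissue, network collagens form sheets such as that of the basement membrane, and beaded type VI collagen links cells to the matrix around them. FACIT collagens sit on the surface of fibrils, transmembrane collagens span the plasma membrane, and type XVIII, a multiplexin, belongs to basement membranes. In the colon the fibrillar and beaded chains are known mainly as products of fibroblasts of the stroma, while the epithelium rests on a basement membrane rich in type IV collagen.

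Levels are FPKM, fragments scaled to transcript length and library size, which allows genes to be compared within a library. A member was counted as expressed at 1 FPKM or more. Lines were compared by the log2 ratio of FPKM + 1, which understates differences at low values, and a gene was called from 4-fold onward, a log2 ratio of 2.00, if the library where it was higher had 1 FPKM or more. Depth read from low values came to 23300000 to 29500000 fragments a library. Counting error at 1 FPKM is therefore small for long transcripts and larger for short ones. HCEC-1CT, labelled epithelial, had little RNA of epithelial markers. Of 15 such markers 3 were at 1 FPKM or more in it, against 13 to 14 in the cancer lines, and EPCAM, CDH1, KRT19, KRT20, ESRP1, GRHL2, CDX1 and CDX2 were listed at 0. Their summed level was 9.35 FPKM in HCEC-1CT and 1692 to 6826 FPKM in the cancer lines. Of 15 fibroblast and pericyte markers all 15 were at 1 FPKM or more in HCEC-1CT, with a sum of 788 FPKM, against 6 in HCT116, 4 in SW620 and 3 in DLD-1, with sums of 60.5, 33.2 and 4.52 FPKM. The part of this difference in the collagen values was not tested. In bulk RNA, fewer cells of a type and less RNA per cell cannot be told apart.

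Collagen RNA was most abundant in HCEC-1CT. The 44 genes summed to 2986 FPKM there, to 260.0 FPKM in HCT116, to 43.0 FPKM in DLD-1 and to 137.6 FPKM in SW620. As a share of all FPKM in the library this was 0.724%, 0.0459%, 0.00982% and 0.0276%, in the same order. HCEC-1CT expressed 22 of the 44 members, HCT116 19, SW620 12 and DLD-1 9. Only HCEC-1CT had members at 100 FPKM or more, and there were 9 of them, while DLD-1 had 1 member at 10 FPKM or more. Of the 31 members expressed in at least 1 library, 21 were highest in HCEC-1CT, 7 in HCT116, 1 in SW620 and 2 in DLD-1. COL7A1, COL16A1 and COL18A1 were the 3 expressed in all 4 libraries. Over protein-coding transcripts alone COL16A1 was under 1 FPKM in HCT116 (0.419) and DLD-1 (0.624), and COL18A1 in DLD-1 (0.456).

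The make-up of the collagen RNA differed between lines as well as its amount. Beaded chains led in HCEC-1CT with 42.8% of collagen FPKM, in HCT116 with 54.0% and in SW620 with 46.1%. In DLD-1 beaded chains made up 0.743%, and transmembrane chains led with 53.2%, or 11.0% without COL17A1. Fibrillar chains held 20.4% in HCEC-1CT, 9.03% in HCT116, 5.42% in SW620 and 3.27% in DLD-1, below the beaded share in the first 3 of these. Type XVIII and its relative type XV together held 1.35% in HCEC-1CT, 14.0% in HCT116, 19.0% in SW620 and 2.60% in DLD-1. A few genes carried most of each sum. COL6A2, COL6A1 and COL7A1 gave 56.6% in HCEC-1CT, COL6A2, COL6A1 and COL18A1 gave 67.2% in HCT116, COL17A1, COL21A1 and COL9A3 gave 65.7% in DLD-1, and COL6A1, COL18A1 and COL9A3 gave 65.1% in SW620.

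**Figure D1:**
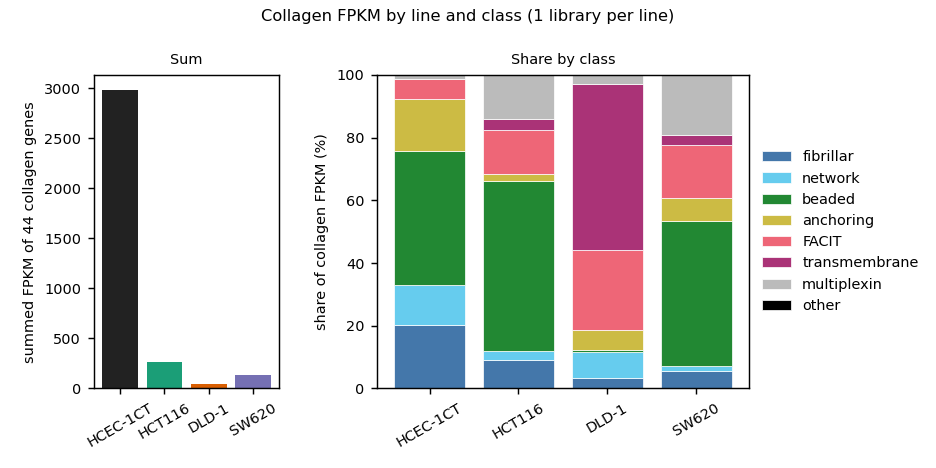
Left, summed FPKM of the 44 collagen genes in each of the 4 libraries. Right, the share of that sum held by each structural class, in percent, 1 bar per library. The HCEC-1CT sum is 2986 FPKM against 43.0 to 260.0 FPKM in the cancer lines, and DLD-1 alone is led by transmembrane chains.

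A gene counted as tested at 1 FPKM or more in a compared library. Against HCEC-1CT, 17 of the 44 members, or of 30 tested, were at least 4-fold lower in HCT116, where 5.73% of all genes tested were lower. In DLD-1 20 of 26 tested were lower, beside 6.3% of all genes, and in SW620 18 of 27, beside 6.36%. The same 17 members, of 31 tested, were lower in all 3 cancer lines, and 2.99% of all genes tested were. They were COL1A1, COL1A2, COL3A1, COL5A1, COL5A2, COL5A3, COL4A1, COL4A2, COL4A5, COL4A6, COL8A1, COL6A1, COL6A2, COL6A3, COL7A1, COL12A1 and COL16A1. By class these were 6 of 11 fibrillar members, 5 of 9 network members, 3 of 5 beaded members, the anchoring fibril gene COL7A1 and 2 of 10 FACIT members. None of the 4 transmembrane members was lower in any cancer line, but none could have been called. Their highest value in HCEC-1CT was 1.06 FPKM (COL13A1), too low for a 4-fold drop of FPKM + 1. The 3 comparisons share the HCEC-1CT library, so they do not give independent counts.

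Higher members were few. COL9A3 was the 1 member at least 4-fold higher in HCT116, where 10.3% of all genes tested were higher, and the 1 in SW620, where it was 10.3% too. COL17A1 and COL21A1 were the 2 members higher in DLD-1, beside 10.4% of all genes. No member was higher in all 3 cancer lines, beside 2.68% of all genes. On the TPM scale HCT116 had 4 members higher (COL9A3, COL11A2, COL4A3 and COL17A1) and 18 lower, beside 9.83% and 8.81% of all genes. COL9A3 and COL17A1 then passed the limit in all 3 lines, beside 3.06% of all genes. Protein-coding transcripts held only 2.12% of the COL9A3 value in DLD-1. Members with at least 1 FPKM in either library had a median log2 ratio of -2.98 over 30 in HCT116, -4.79 over 26 in DLD-1 and -4.04 over 27 in SW620. All genes tested had medians of 0.39, 0.43 and 0.29 in the same comparisons. Genes expressed in all 4 libraries were themselves shifted upward by 0.34, 0.37 and 0.26, so the collagen ratios lie slightly further below other genes than below zero. Over all 44 members, those near 0 in both libraries included, the medians were -0.07, -0.66 and -0.64.

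**Figure D2:**
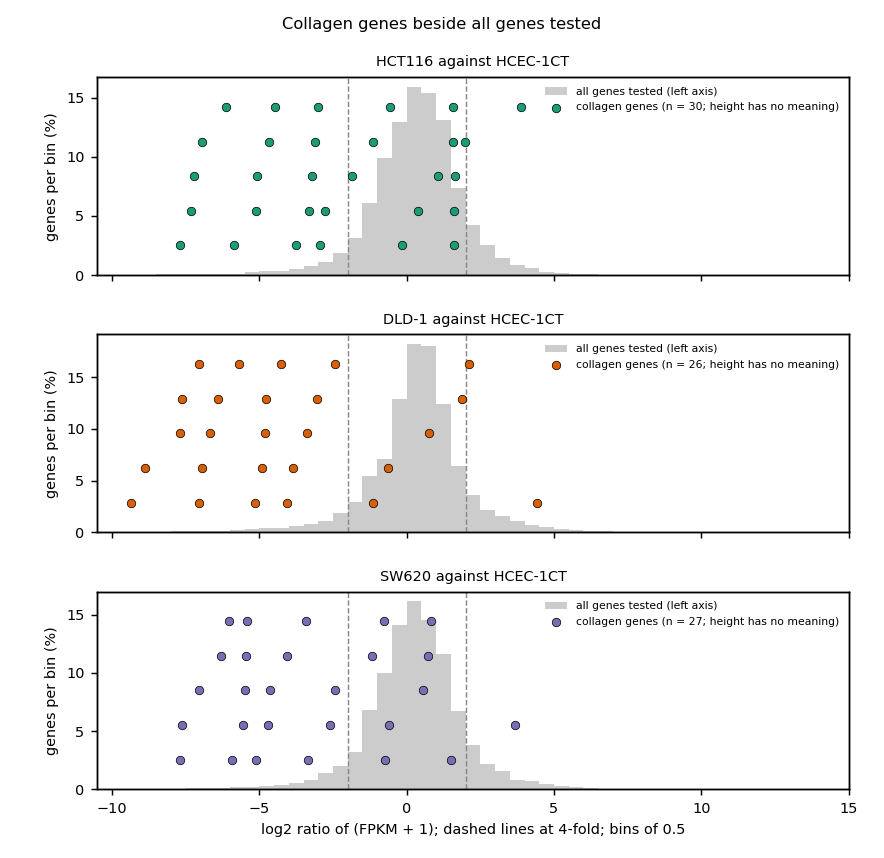
Each panel gives 1 cancer line against HCEC-1CT. Grey bars are the percent of all genes tested per bin of the log2 ratio of FPKM + 1, points are collagen genes, whose height has no meaning, and dashed lines mark 4-fold. The collagen medians of -2.98, -4.79 and -4.04 lie well left of the grey peaks, and 1 to 2 points a panel lie beyond the right line.

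Among the fibrillar genes, those of types I, III and V were abundant in HCEC-1CT and low or listed at 0 in the cancer lines. COL1A1 (chr17:50183289-50201632 in hg38, the build of all positions here) encodes the chain present in most copies of type I collagen. It stood at 104 FPKM in HCEC-1CT, 12.1 in HCT116, 3.00 in SW620 and 0.0213 in DLD-1, which gave log2 ratios to HCEC-1CT of -3.01, -4.71 and -6.68 in that order. COL1A2, its partner (chr7:94394561-94431232), stood at 208 FPKM in HCEC-1CT and was listed at 0 in each cancer line. HCT116 and SW620 therefore held RNA of 1 type I chain and none was listed for the other. COL3A1, the chain of type III collagen, stood at 198 FPKM in HCEC-1CT, 0.256 in HCT116 and 0.00620 in SW620, and was listed at 0 in DLD-1. The SW620 value corresponds to about 0.99 fragments, so HCT116 was the 1 cancer line with more than a trace.

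Type V collagen is known to start and thin fibrils of type I. COL5A1 stood at 15.7 FPKM in HCEC-1CT, 0.227 in HCT116, 0.0118 in SW620 and was listed at 0 in DLD-1. COL5A2 stood at 42.5 FPKM in HCEC-1CT, 0.277 in HCT116, 0.0268 in SW620 and 0.438 in DLD-1. COL5A3 stood at 26.5 FPKM in HCEC-1CT, 0.0735 in HCT116 and 0.0986 in SW620, and was listed at 0 in DLD-1. None of the 3 type V genes was expressed in a cancer line, and their log2 ratios lay between -3.77 for COL5A1 in HCT116 and -5.40 for COL5A2 in SW620. COL3A1 and COL5A2 lie 19.15 kb apart on chromosome 2, and COL3A1 was 4.66 times the level of its neighbour in HCEC-1CT.

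Of the other fibrillar genes, COL24A1 had a similar pattern at lower levels, while COL27A1 and COL11A2 did not. COL24A1 stood at 4.40 FPKM in HCEC-1CT, 0.502 in HCT116, 0.0102 in SW620 and 0 in DLD-1, so it was past 4-fold in DLD-1 and SW620 and not in HCT116, at a log2 ratio of -1.85. It passed in HCT116 too with scaling by median ratios (-2.11), on the TPM scale (-2.63) and with a pseudocount of 0.1 (-2.90). With a pseudocount of 5 or a minimum of 5 FPKM it passed in no line. COL27A1, a chain of cartilage, stood at 8.25 FPKM in HCEC-1CT, 5.28 in HCT116, 3.13 in SW620 and 0.135 in DLD-1. It was low in DLD-1 only, with a log2 ratio of -3.03, against -0.56 in HCT116 and -1.16 in SW620. COL11A2, which encodes a chain of the cartilage collagen type XI, went the other way at low levels: 0.465 FPKM in HCEC-1CT, 4.80 in HCT116, 1.17 in SW620 and 0.810 in DLD-1. Its log2 ratio in HCT116 was 1.99, just short of the limit. The other chain gene of type XI, COL11A1, was listed at 0 in all 3 cancer lines.

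**Figure D3:**
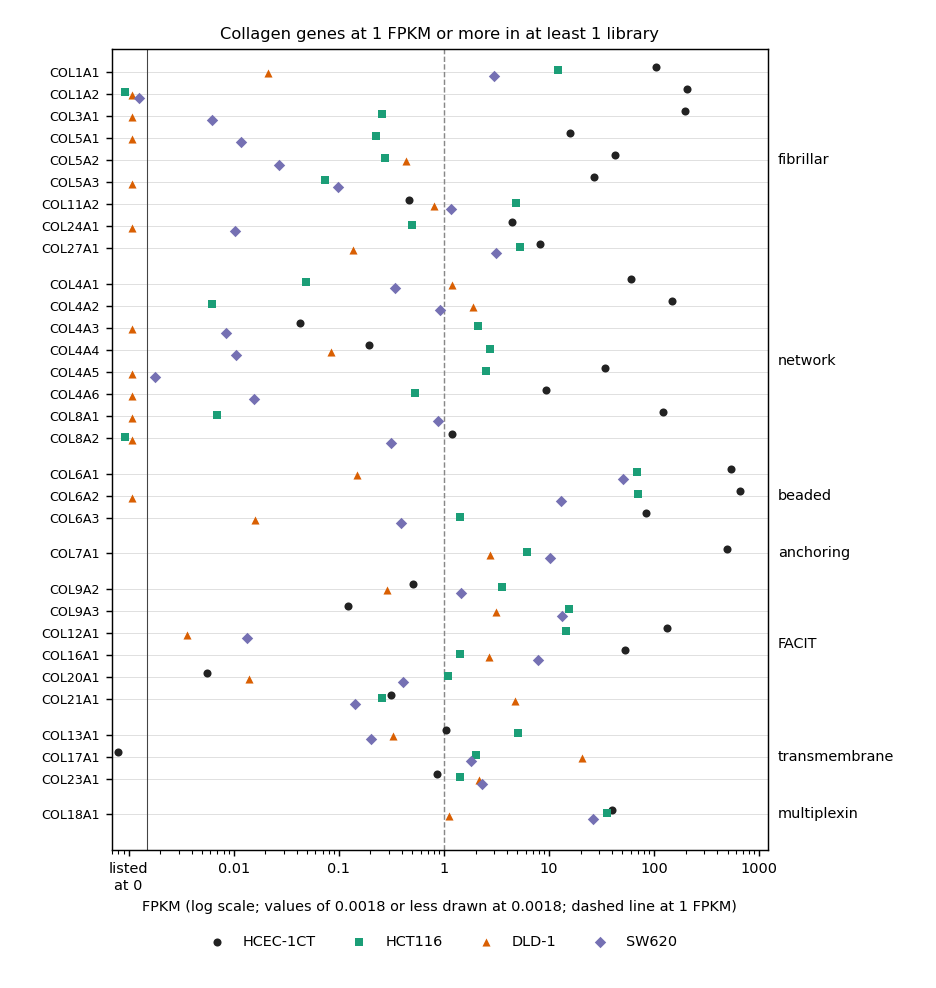
FPKM on a log axis of the 31 collagen genes at 1 FPKM or more in at least 1 library, grouped by class, with 1 marker per line; values of 0 sit left of the vertical line and the dashed line marks 1 FPKM. HCEC-1CT markers lie far to the right in the rows of COL1A1, COL1A2, COL3A1, the type V and type VI genes and COL7A1, while COL9A3, COL17A1 and COL21A1 have cancer line markers on the right.

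Network collagens of the basement membrane are encoded by 6 type IV genes, which lie in the genome as 3 pairs read outward from a shared start region. The start sites given by RefSeq (GRCh38.p14) lie 126 bases apart for COL4A1 and COL4A2, 418 for COL4A4 and COL4A3, and 379 for COL4A6 and COL4A5. The sequences shown are exon-free stretches from the start regions of the pairs whose ratios differed in direction, so that a reader can compare them. The first is the whole gap between the 2 loci at chr2:227164454-227164564, on the plus strand; the second lies before COL4A5 at chrX:108439588-108439837, also on the plus strand. Capitals mark CCAAT and GGGCGG, or their reverse complements ATTGG and CCGCCC.
COL4A4 and COL4A3: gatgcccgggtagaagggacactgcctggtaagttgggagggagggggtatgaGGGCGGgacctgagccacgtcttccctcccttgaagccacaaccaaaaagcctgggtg
COL4A5: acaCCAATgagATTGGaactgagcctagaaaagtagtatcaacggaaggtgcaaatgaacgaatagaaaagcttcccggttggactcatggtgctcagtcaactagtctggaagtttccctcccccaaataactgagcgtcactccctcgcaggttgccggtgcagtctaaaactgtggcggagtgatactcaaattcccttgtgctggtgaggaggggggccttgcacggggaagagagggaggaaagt
The gap of 111 bases between COL4A4 and COL4A3 holds 61.3% G and C and 1 GGGCGG, and the 250 bases before COL4A5 hold 51.2% G and C and 2 CCAAT. These letters are a description of the stretch and show no binding.

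COL4A1 and COL4A2 put the 4 lines in the same order. COL4A1 stood at 59.9 FPKM in HCEC-1CT, 0.0488 in HCT116, 0.345 in SW620 and 1.19 in DLD-1. COL4A2 stood at 149 FPKM in HCEC-1CT, 0.00619 in HCT116, 0.923 in SW620 and 1.90 in DLD-1. These chains form the type IV collagen found in nearly all basement membranes, and HCT116 had the lowest value of both, about 1.02 fragments of COL4A2. The 2 loci overlap by 1338 bases and COL4A2-AS1 lies across COL4A2, with 13.2 FPKM in HCEC-1CT. Strand is not stated, so reads of overlapping genes cannot be told apart.

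The second pair was seen in 1 cancer line. COL4A3 stood at 0.0423 FPKM in HCEC-1CT, 2.09 in HCT116, 0.00850 in SW620 and was listed at 0 in DLD-1. COL4A4 stood at 0.195 FPKM in HCEC-1CT, 2.72 in HCT116, 0.0104 in SW620 and 0.0840 in DLD-1. Both chains belong to the type IV collagen of specialised basement membranes, such as that of the kidney glomerulus. With log2 ratios of 1.57 and 1.64 in HCT116 neither was past 4-fold, although the other libraries were all below 0.2 FPKM, since the pseudocount of 1 shrinks ratios at such levels. HCT116 thus expressed the second pair and not the first.

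The pair on the X chromosome was higher in HCEC-1CT. COL4A5 stood at 34.0 FPKM in HCEC-1CT, 2.49 in HCT116, 0.00158 in SW620 and was listed at 0 in DLD-1. COL4A6 stood at 9.42 FPKM in HCEC-1CT, 0.533 in HCT116, 0.0155 in SW620 and was also listed at 0 in DLD-1. COL4A5 was 3.61 times COL4A6 in HCEC-1CT and 4.68 times in HCT116. Type VIII collagen, a network collagen known from vessel walls and the eye, was also highest in HCEC-1CT: COL8A1 stood at 122.5 FPKM in HCEC-1CT, 0.00693 in HCT116, 0.880 in SW620 and 0 in DLD-1. Its partner COL8A2 stood at 1.19 FPKM in HCEC-1CT and 0.312 in SW620, and was listed at 0 in HCT116 and DLD-1.

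Beaded type VI collagen is built of COL6A1, COL6A2 and a further chain, most often COL6A3, and COL6A2 and COL6A1 were the 2 most abundant collagens in HCEC-1CT. COL6A1 stood at 539 FPKM in HCEC-1CT, 68.8 in HCT116, 50.1 in SW620 and 0.149 in DLD-1. COL6A2 stood at 655 FPKM in HCEC-1CT, 70.2 in HCT116, 13.0 in SW620 and was listed at 0 in DLD-1. COL6A3 stood at 83.9 FPKM in HCEC-1CT, 1.43 in HCT116, 0.387 in SW620 and 0.0158 in DLD-1. DLD-1 was the lowest line for all 3 genes, and COL6A3 had lower ratios to HCEC-1CT than its partners in HCT116 and SW620. The log2 ratios of COL6A3 were -5.13 in HCT116 and -5.94 in SW620, against -2.95 and -3.40 for COL6A1 and -3.20 and -5.56 for COL6A2. COL6A5 and COL6A6, which can replace COL6A3, stayed under 0.2 FPKM in every library.

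The start region of COL6A2 is printed because its gene covers the widest range among the members, from 655 FPKM to a value listed at 0. It spans chr21:46097862-46098096 on the plus strand (RefSeq, GRCh38.p14), and capitals mark GGGCGG or CCGCCC and TATAAA.
COL6A2: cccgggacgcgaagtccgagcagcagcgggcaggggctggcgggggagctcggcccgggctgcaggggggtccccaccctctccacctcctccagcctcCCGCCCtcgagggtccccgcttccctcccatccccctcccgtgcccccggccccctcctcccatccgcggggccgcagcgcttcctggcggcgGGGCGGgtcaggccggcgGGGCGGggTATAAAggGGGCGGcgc
Its 235 bases hold 79.6% G and C, 25 CG dinucleotides, 4 GGGCGG on either strand and 1 TATAAA.

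Type VII collagen forms the fibrils that anchor basement membranes to the tissue under them. COL7A1 (chr3:48564073-48595267) stood at 495 FPKM in HCEC-1CT, 6.14 in HCT116, 10.3 in SW620 and 2.72 in DLD-1. It was the third collagen of HCEC-1CT and remained expressed in each cancer line, with log2 ratios to HCEC-1CT of -6.12 in HCT116, -5.45 in SW620 and -7.06 in DLD-1.

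The FACIT genes split by gene and by line. COL12A1, whose protein decorates type I fibrils, stood at 132 FPKM in HCEC-1CT, 14.6 in HCT116, 0.0134 in SW620 and 0.00358 in DLD-1. HCT116 was the only cancer line in which it was expressed, and the DLD-1 value stands for about 0.98 fragments. COL16A1, found near fibrils and basement membranes, stood at 52.9 FPKM in HCEC-1CT, 1.42 in HCT116, 7.83 in SW620 and 2.70 in DLD-1. Here HCT116 was the lowest line, with a log2 ratio to HCEC-1CT of -4.48, against -3.86 for DLD-1 and -2.61 for SW620.

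Type IX collagen, known from cartilage, is built of COL9A1, COL9A2 and COL9A3, and its genes were low in HCEC-1CT. COL9A3 stood at 0.122 FPKM in HCEC-1CT, 15.6 in HCT116, 13.4 in SW620 and 3.16 in DLD-1. The HCEC-1CT value stands for about 3.59 fragments. All 3 cancer lines were above HCEC-1CT, by log2 ratios of 3.89 in HCT116, 3.68 in SW620 and 1.89 in DLD-1, the last short of 4-fold. COL9A2 stood at 0.504 FPKM in HCEC-1CT, 3.56 in HCT116, 1.47 in SW620 and 0.287 in DLD-1. COL9A1 was listed at 0 in all but DLD-1, which had 0.00900 FPKM. COL9A3 was 4.38 times COL9A2 in HCT116, 11.0 times in DLD-1 and 9.11 times in SW620, and none of the lines had all 3 chains at 1 FPKM. Over protein-coding transcripts alone the ratio was 7.47 in HCT116 and 9.67 in SW620. In DLD-1 the order then turned, with 0.0669 FPKM of COL9A3 beside 0.269 FPKM of COL9A2.

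COL20A1 was expressed in HCT116 only, at 1.09 FPKM, against 0.00556 in HCEC-1CT, 0.0140 in DLD-1 and 0.410 in SW620. Protein-coding transcripts held 38.3% of the HCT116 value, or 0.419 FPKM. COL21A1, a FACIT gene known from vessel walls, was highest in DLD-1 at 4.72 FPKM, against 0.314 in HCEC-1CT, 0.259 in HCT116 and 0.142 in SW620. The other 3 lines lay below 0.32 FPKM, and the log2 ratio of DLD-1 to HCEC-1CT was 2.12, just past the limit. It was 1.94 with scaling by median ratios, 1.09 over coding transcripts only and 0.87 with a pseudocount of 5, none of them past it.

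Among transmembrane collagens COL17A1 stood out. It encodes a protein of hemidesmosomes, the junctions by which epithelial cells hold to the basement membrane. COL17A1 (chr10:104031286-104086002) was listed at 0 in HCEC-1CT and stood at 20.4 FPKM in DLD-1, 2.04 in HCT116 and 1.82 in SW620. DLD-1 was highest by far, with a log2 ratio of 4.42 to HCEC-1CT, 2.82 to HCT116 and 2.92 to SW620. Its start region is shown beside that of COL6A2 because COL17A1 ranked first in DLD-1, where COL6A2, first in HCEC-1CT, was listed at 0. The stretch at chr10:104085958-104086130 on the minus strand (RefSeq, GRCh38.p14) has TATAAA and ATTGG, the reverse complement of CCAAT, in capitals.
COL17A1: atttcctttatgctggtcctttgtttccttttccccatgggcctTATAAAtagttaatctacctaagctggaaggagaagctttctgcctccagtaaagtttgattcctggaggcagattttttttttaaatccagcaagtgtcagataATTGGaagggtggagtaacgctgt
Its 173 bases hold 40.5% G and C and 1 CG dinucleotide, against 79.6% and 25 in the stretch before COL6A2.

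COL13A1, found at sites where cells adhere, stood at 1.06 FPKM in HCEC-1CT, 5.06 in HCT116, 0.203 in SW620 and 0.329 in DLD-1. HCT116 was the highest line, with a log2 ratio to HCEC-1CT of 1.56. COL23A1 stood at 0.858 FPKM in HCEC-1CT, 1.42 in HCT116, 2.31 in SW620 and 2.16 in DLD-1, a narrow range. That value does not come from the known transcripts of COL23A1. Of it, 99.4% in DLD-1, 99.5% in SW620 and 100% in HCT116 belongs to a transcript that is not in GENCODE 29, at chr5:178518691-178519128. It covers 438 bases inside the gene's span and overlaps 0 of its annotated exons. COL23A1 is the 1 member counted above as highest in SW620, and it was counted as expressed in each cancer line. Most of the 11.0% held by transmembrane chains in DLD-1 without COL17A1 was COL23A1 as well. These counts and that share thus rest on the unannotated transcript.

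COL18A1 (chr21:45405137-45513720) encodes a basement membrane collagen from which endostatin is cut. It stood at 39.8 FPKM in HCEC-1CT, 35.7 in HCT116, 26.2 in SW620 and 1.11 in DLD-1. HCEC-1CT, HCT116 and SW620 lay close together and DLD-1 stood apart, with log2 ratios to HCEC-1CT of -0.15 in HCT116, -0.59 in SW620 and -4.27 in DLD-1. It was the third collagen of HCT116 and the second of SW620.

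The other 13 members stayed under 1 FPKM in every library. Their highest values were 0.803 FPKM for COL15A1, 0.411 for COL10A1, 0.271 for COL26A1, 0.143 for COL28A1, 0.127 for COL6A6, 0.0922 for COL14A1, 0.0535 for COL25A1, 0.0412 for COL11A1, 0.0278 for COL6A5, 0.0175 for COL2A1 and 0.00900 for COL9A1. COL19A1 and COL22A1 were listed at 0 in all 4 libraries.

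Chains that share a triple helix were set side by side within each library, since such a ratio does not depend on how libraries were scaled. COL1A2 was 2.00 times COL1A1 in HCEC-1CT, although type I collagen is known to hold more COL1A1 than COL1A2 chains. COL4A2 was 2.49 times COL4A1 in HCEC-1CT and 1.59 times in DLD-1. COL6A1 was 0.822 times COL6A2 in HCEC-1CT and 0.981 times in HCT116, but 3.87 times in SW620. COL6A1 was 6.42 times COL6A3 in HCEC-1CT, 48.3 times in HCT116 and 129.6 times in SW620. The 3 chains of type VI were therefore nearest to equal in HCEC-1CT. Over protein-coding transcripts alone COL6A1 was 0.336 times COL6A2 in HCEC-1CT and 2.23 times in SW620, and 2.51 times COL6A3 in HCEC-1CT and 331 times in SW620. COL8A1 was 103 times COL8A2 in HCEC-1CT.

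**Figure D4:**
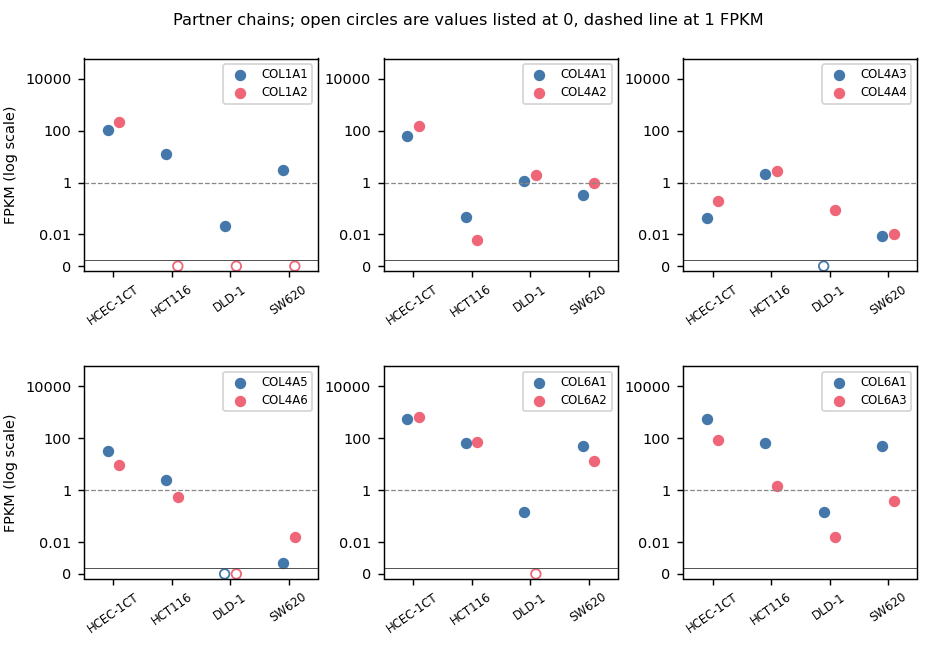
FPKM on a log axis of 6 pairs of partner chains in the 4 libraries, 1 panel per pair; open circles under the line are values listed at 0 and the dashed line marks 1 FPKM. COL1A2 is at 0 in the 3 cancer lines while COL1A1 is at 12.1 FPKM in HCT116, and the gap between COL6A1 and COL6A3 is wider in HCT116 and SW620 than in HCEC-1CT.

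A gene value sums all its transcripts, and the transcript table shows how much of it belongs to protein-coding ones by GENCODE 29. Of the members at 1 FPKM or more, the leading transcript was coding for 21 of 22 in HCEC-1CT, 17 of 19 in HCT116, 9 of 12 in SW620 and 5 of 9 in DLD-1. Coding transcripts held a median of 89.2% of a member's FPKM in HCEC-1CT, 64.1% in HCT116, 65.4% in SW620 and 40.9% in DLD-1. The coding share was under 50% for 1 member in HCEC-1CT, 6 in HCT116, 3 in SW620 and 6 in DLD-1, COL16A1 being among them in each cancer line. COL9A3 in DLD-1 was 2.12% coding, with COL9A3-206, a processed transcript, in the lead. In HCT116 and SW620 COL9A3 was 76.3% and 65.0% coding. COL21A1 in DLD-1 was 29.8% coding. COL17A1 was 97.9% coding in DLD-1, with 18.3 of its 20.4 FPKM in the full transcript COL17A1-201.

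**Figure D5:**
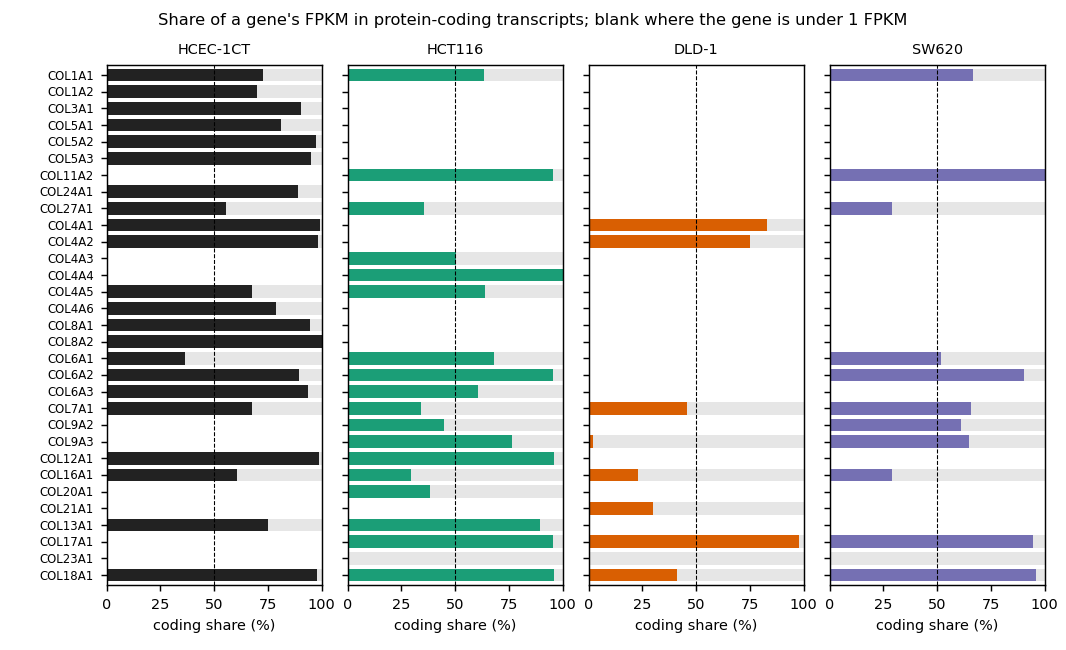
Bars give the percent of each gene's FPKM that lies in protein-coding transcripts, 1 panel per line, for members at 1 FPKM or more; the grey remainder lies in other transcripts, blank rows are under 1 FPKM and the dashed line marks 50%. HCEC-1CT bars are long except for COL6A1, and 6 of the 9 bars in DLD-1 end below the line.

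The leading transcript of some genes differed between lines. COL18A1 was led in HCEC-1CT, HCT116 and SW620 by COL18A1-204 at 34.3, 30.8 and 20.7 FPKM. In DLD-1 that transcript was listed at 0, and 59.1% of the remaining 1.11 FPKM lay in COL18A1-207, a retained intron. COL18A1-207 lies in the 3' part of the gene that overlaps SLC19A1, a gene at 4.82 FPKM in HCEC-1CT, 6.49 in DLD-1, 7.42 in HCT116 and 7.86 in SW620. COL6A1 in HCEC-1CT was led by COL6A1-206, a processed transcript at the 3' end of the gene, with 314.8 of its 539 FPKM. Counting coding transcripts only, COL6A1 stood at 197 FPKM beside 587 FPKM of COL6A2, so the near-equal ratio above depends on that transcript. COL4A5 was led by COL4A5-201 in HCEC-1CT at 19.3 FPKM, and by COL4A5-202 in HCT116 at 1.30 FPKM. COL4A5-201 has 53 exons and COL4A5-202 has 51. The exons missing from COL4A5-202 are 2 exons of 9 bases each, at chrX:108670228-108670236 and chrX:108674745-108674753, and the other differences are at the transcript ends.

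Among the cancer lines, the comparisons with DLD-1 had the most collagen calls. HCT116 had 7 of 22 members tested at least 4-fold higher than DLD-1, where 5.51% of all genes tested were higher: COL1A1, COL27A1, COL6A1, COL6A2, COL12A1, COL13A1 and COL18A1. It had 2 lower, COL21A1 and COL17A1, beside 5.04% of all genes. SW620 had 3 of 15 members tested higher than DLD-1, COL6A1, COL6A2 and COL18A1, beside 5.35% of all genes. It had 2 lower, COL21A1 and COL17A1, beside 4.82%. HCT116 had 3 of 19 members tested higher than SW620, COL6A2, COL12A1 and COL13A1, beside 3.95% of all genes, and 0 lower, beside 4.37%. On the TPM scale HCT116 had 11 higher and 3 lower than DLD-1, beside 5.473% and 9.205% of all genes. It had 6 higher and 1 lower than SW620, beside 4.548% and 6.002%. SW620 had 5 higher and 2 lower than DLD-1, beside 5.861% and 7.867%. The log2 ratio of HCT116 to SW620 was 3.94 for COL12A1, 2.35 for COL6A2 and 2.33 for COL13A1.

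The 3 members lower in DLD-1 than in both other cancer lines, COL18A1, COL6A1 and COL6A2, lie together on chromosome 21. The gaps between them are 468.02 kb and 93.05 kb. They were 3 of 22 members tested, and by the same rule 1.54% of all genes tested were lower in DLD-1 than in both. In a window from 200 kb before COL18A1 to 200 kb after COL6A2 (chr21:45205137-46332849), chosen after the values had been seen, 18 other genes reached 1 FPKM in some library. Of these, 0 were 4-fold lower in DLD-1 than in both HCT116 and SW620, and 11 were at 1 FPKM or more in DLD-1. Neighbours with low values in HCT116 or SW620 could not pass this rule, because of the pseudocount of 1. The 0 therefore does not show that lower values in DLD-1 are limited to the 3 members. PCBP3, which lies between COL18A1 and COL6A1, stood at 25.7 FPKM in HCEC-1CT, 2.42 in HCT116, 5.22 in SW620 and 0.171 in DLD-1. It too was lowest in DLD-1, at least 4-fold below SW620 but short of 4-fold below HCT116, so it missed the rule. Among the genes of this window, FTCD lies next after COL6A2, AJ011932.1 next before COL6A1 and BX322562.1 next before COL18A1. Each of these neighbours was listed at 0 in DLD-1. They were low in HCT116 and SW620 too, so none could pass the rule. SPATC1L and LSS, further on from COL6A2, stood at 4.34 and 73.9 FPKM in DLD-1.

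RefSeq start windows of 300 bases (250 before and 50 after the start, GRCh38.p14) were found for 32 of the 44 members. Those without one were COL1A1, COL1A2, COL2A1, COL3A1, COL5A2, COL8A1, COL6A1, COL6A5, COL9A3, COL14A1, COL20A1 and COL22A1. The windows of COL8A2, COL6A3 and COL6A6 lie more than 10 kb from the start of the gene's leading coding transcript. The median G and C content was 66.7% in the 32 windows and 58.7% in all 35116 windows. GGGCGG or CCGCCC was found in 19 of the 32 (59.4%, against 45.0% of all windows), CCAAT or ATTGG in 10 (31.3%, against 34.6%) and TATAAA or TTTATA in 6 (18.8%, against 11.5%).

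Genes that make, bind and degrade collagen were taken as 8 lists of 88 genes, of which 70 were at 1 FPKM or more in some library. In all 3 cancer lines 16 of them were at least 4-fold lower than HCEC-1CT and 1 was higher, beside 2.99% and 2.68% of all genes. All 15 genes of chain hydroxylation and glycosylation were measured and 0 were lower in all 3 lines, with median log2 ratios in HCT116, DLD-1 and SW620 of -0.29, -0.95 and -0.74 against 0.27, 0.33 and 0.21 for all genes at 1 FPKM or more in some library. P4HA3, a subunit of prolyl hydroxylase, stood at 4.12 FPKM in HCEC-1CT and 2.53, 1.65 and 2.06 in HCT116, DLD-1 and SW620. PLOD2, a lysyl hydroxylase, stood at 120 FPKM in HCEC-1CT, 24.9 in HCT116, 29.5 in SW620 and 96.4 in DLD-1.

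Of 14 genes of folding and export, 0 were lower in all 3 lines. SERPINH1, the collagen chaperone HSP47, stood at 78.3 FPKM in HCEC-1CT, 10.5 in HCT116, 25.0 in SW620 and 15.3 in DLD-1, past 4-fold in HCT116 and DLD-1. The cancer lines thus kept RNA of this chaperone at 10.5 FPKM or more. Of 10 genes of propeptide removal 5 were measured, and ADAMTS2, which trims the ends of fibrillar chains, was lower in all 3 lines at 9.97 FPKM in HCEC-1CT, 1.67 in HCT116, 0.301 in SW620 and 0 in DLD-1. Of 5 crosslinking genes, LOX, an enzyme that links chains outside the cell, was lower in all 3. It stood at 149 FPKM in HCEC-1CT, 0 in HCT116, 0.267 in SW620 and 0.0904 in DLD-1.

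Of 12 receptor genes 9 were measured and 4 were lower in all 3 lines. DDR2, a receptor tyrosine kinase for fibrillar collagen, stood at 81.5 FPKM in HCEC-1CT, 0.835 in HCT116, 0.0729 in SW620 and 0.733 in DLD-1. DDR1, its relative in epithelia, stood at 31.3 FPKM in HCEC-1CT, 71.0 in HCT116, 64.6 in SW620 and 109 in DLD-1, below 4-fold in each. The order of these relatives was thus opposite in HCEC-1CT and the cancer lines. ITGA1, an integrin chain that binds collagen, stood at 47.1 FPKM in HCEC-1CT, 1.31 in SW620, 0.431 in DLD-1 and 0.0969 in HCT116. ITGA2, another such chain, stayed at 8.90 to 25.2 FPKM in the cancer lines against 109.7 in HCEC-1CT. MRC2, which takes up collagen for breakdown, stood at 118 FPKM in HCEC-1CT, 24.1 in HCT116, 0.248 in SW620 and 0.0192 in DLD-1.

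Of 8 collagen cleavage genes 5 were measured and all 5 were lower in all 3 lines. MMP1, the interstitial collagenase, stood at 829 FPKM in HCEC-1CT, 0.220 in HCT116, 0 in SW620 and 0.130 in DLD-1. MMP2, a gelatinase, stood at 619 FPKM in HCEC-1CT and 0.0835 in HCT116, and was listed at 0 in DLD-1 and SW620. Cathepsin K, CTSK, stood at 337 FPKM in HCEC-1CT and 2.33 to 2.46 in the cancer lines. FAP stood at 59.8 FPKM in HCEC-1CT and was listed at 0 in the other 3, and MMP14 was the fifth. Of 12 partners of fibrils 6 were measured, and DCN, LUM and SPARC were lower in all 3. LUM, a small proteoglycan that binds fibrils, stood at 188 FPKM in HCEC-1CT, 0.0518 in HCT116, 24.5 in SW620 and 0 in DLD-1. The SW620 value was the highest of these 3 genes in a cancer line. Of 12 transcription factors known to act on collagen genes 11 were measured. TWIST1 and CEBPB were lower in all 3 and SOX9, which drives cartilage collagen genes, was higher: it was listed at 0 in HCEC-1CT and stood at 136.9 FPKM in SW620, 91.1 in DLD-1 and 85.9 in HCT116. DCN, LUM, FAP and TWIST1 are also on the list of fibroblast and pericyte markers, so these counts are not separate from it.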

How the data were processed

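The values are FPKM per gene and per transcript as deposited by the authors for 4 lines, 1 library each. HISAT2, FastQC and build hg38 are named, without versions, in the submitters' processing notes. How FPKM were computed and whether libraries kept strand were not given in the sources used here. A column of values that matched no sample (1 in the gene table, 1 in the transcript table) was left out. Transcript types and lengths came from GENCODE 29 for 358 of 360 transcripts of members, and start windows from RefSeq GRCh38.p14.

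Here, log2 ratios of FPKM with a pseudocount of 1 were computed over all genes in Python 3.11.15 with pandas 2.3.3. The code was run on simulated data whose changes were well past 4-fold and in well-expressed genes. Changes at low values or near the limit were not covered. A call needed 4-fold and at least 1 FPKM in the higher library. With 1 library per line there was no test. Background shares are over genes at 1 FPKM or more in a compared library. Depth was estimated from the step of low values in genes with 1 transcript: 29500000 in HCEC-1CT, 28700000 in SW620, 25300000 in HCT116 and 23300000 in DLD-1 (fragments). Every member at 1 FPKM or more in some library was named with its values. In each pathway list the genes called in all 3 cancer lines in 1 direction were named, at most 4, with P4HA3, PLOD2, SERPINH1, LOX, DDR1, DDR2, ITGA1 and ITGA2. MMP14 was named after its value was seen, to complete a count. Classes, members and lists were chosen with earlier results of these data known. Alternatives were another pseudocount, fold, minimum, scaling, coding transcripts alone and each class without its highest gene. Endothelial markers summed to 0.916 to 16.0 FPKM and leukocyte markers to 1.81 to 41.4 FPKM.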

Additional observations from a re-analysis of the deposited data

How the results depend on the processing

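Collagen members lower than HCEC-1CT numbered 15 to 19 in HCT116, 16 to 19 in SW620, 17 to 21 in DLD-1 and 15 to 18 in all 3 under the 7 alternatives tried, each within 1.5 times the value reported. The share of all genes that were lower moved more, so the contrast with other genes depends on the setting. From a pseudocount of 5 to a limit of 2-fold it rose from 2.31% to 14.96% in HCT116. It rose from 2.547% to 16.38% in SW620, from 2.739% to 14.61% in DLD-1 and from 1.39% to 7.11% in all 3. Counts of higher members and counts between cancer lines are small and moved. With a pseudocount of 0.1, members higher than HCEC-1CT numbered 8 in HCT116 (19.7%), 2 in SW620 (19.0%) and 2 in all 3 (5.92%). HCT116 then had 15 higher (11.4%) and 4 lower (12.4%) than DLD-1. It had 6 higher (9.66%) and 1 lower (8.70%) than SW620, and DLD-1 had 7 lower than SW620 (10.4%). With a pseudocount of 5, 1 member was higher in DLD-1 (3.58%) and 0 in SW620 (3.55%) than in HCEC-1CT. HCT116 then had 3 higher (1.29%) and 0 lower (1.69%) than DLD-1. It had 1 higher than SW620 (0.744%), and DLD-1 had 0 higher than SW620 (1.41%). At a limit of 2-fold, members higher than HCEC-1CT numbered 8 in HCT116 (30.8%), 2 in SW620 (28.7%) and 2 in all 3 (9.35%). HCT116 then had 15 higher (18.3%) and 4 lower (20.1%) than DLD-1. It had 8 higher (16.6%) and 1 lower (14.2%) than SW620, and DLD-1 had 8 lower than SW620 (16.2%). Pathway genes in all 3 lines numbered 26 lower (7.11%) and 2 higher (9.35%). On the TPM scale, members higher than HCEC-1CT numbered 4 in HCT116 (9.832%), 2 in SW620 (10.74%) and 2 in all 3 (3.064%). HCT116 then had 11 higher than DLD-1 (5.473%). It had 6 higher (4.548%) and 1 lower (6.002%) than SW620, and DLD-1 had 5 lower than SW620 (5.861%). Scaling by median ratios left 1 member higher in DLD-1 than in HCEC-1CT (8.47%). So did a minimum of 5 FPKM (13.8%) and counting protein-coding transcripts only (11.3%). The minimum and the coding count each left 1 member lower in HCT116 than in DLD-1 (6.53% and 4.85%). They also each left 1 higher in DLD-1 than in SW620 (6.31% and 4.55%). At 5 FPKM, 9 members were expressed in HCT116, 6 in SW620 and 1 in DLD-1. At 0.1 FPKM, 17 were expressed in DLD-1 and 20 in SW620, and with coding transcripts only 4 were expressed in DLD-1. The leading class held 38.5% in HCEC-1CT, 55.1% in HCT116, 41.9% in SW620 and 69.9% in DLD-1 over coding transcripts, and 26.7% in HCEC-1CT, 37.0% in HCT116, 15.2% in SW620 and 11.0% in DLD-1 without its highest member. The cause of these changes was not tested. No ratio of a single member to HCEC-1CT that was past 4-fold changed sign. Of 93 ratios compared over coding transcripts, 4 that were short of 4-fold did: COL21A1 in HCT116 (log2 -0.06 to 0.14), and COL23A1 in HCT116 (0.38 to -0.026), SW620 (0.83 to -0.009) and DLD-1 (0.77 to -0.006). With a pseudocount of 5, COL4A6 missed 4-fold in all 3 lines (log2 -1.38 in HCT116, -1.52 in SW620 and -1.53 in DLD-1), COL5A1 in HCT116 (-1.99), COL27A1 in DLD-1 (-1.37) and COL9A3 in SW620 (1.84). No paired analysis was possible because each line has 1 library and the labels carry no shared replicate numbers. Precision is limited by the lack of a second library of each line and by low fragment numbers: COL9A3 in HCEC-1CT rests on about 3.59 fragments, COL1A1 in DLD-1 on 3.35 and COL4A1 in HCT116 on 3.01.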
